A study of Mus musculus with 7 samples.

Results

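The metabotropic glutamate receptors described here are the 6 genes Grm2, Grm3, Grm4, Grm5, Grm7 and Grm8, taken by gene symbol from count and RPKM tables of 53801 mouse genes. RNA sequencing was carried out on tissue labelled cortical plate from C57BL/6J mice at 2 ages. The adult group (10.5 months) held 3 female libraries, all with a CamK II-Cre transgene. Adult replicates 1 and 3 were Atr fl/+ and replicate 2 was Atr +/+. The embryonic group (E14.5) held 4 libraries, all Nbs1 fl/+ with a Nestin-Cre transgene. Of the embryos' libraries, 1 and 4 came from males and the others from females. Every library carried a Cre transgene. CamK II promoters drive expression mainly in forebrain excitatory neurons, and Nestin-Cre acts in neural progenitors and their progeny. Library kit (TruSeq stranded mRNA in adults, TruSeq RNA v2 at E14.5), Cre driver, floxed allele and, in part, sex went with age, so the ages cannot be told apart from these. The labels do not state that each library came from its own animal, so the spread behind each p-value is that between these samples and may be technical. For the embryos, the dates in the labels place brain isolation sooner after the plug than the stated stage, which is used as labelled.

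Metabotropic glutamate receptors are G protein-coupled receptors that sense glutamate and tune synaptic transmission over slower times than the ion-channel glutamate receptors. Group I receptors, represented here by Grm5, couple to Gq, activate phospholipase C and release calcium from internal stores, mostly at postsynaptic sites. Group II (Grm2, Grm3) and group III (Grm4, Grm7, Grm8) couple to Gi/o, lower cyclic AMP and act largely on presynaptic terminals, where they limit transmitter release. Grm3 and Grm5 are also known from astrocytes.

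Library totals were 27327927 to 29996018 counts in adults and 32533065 to 43197226 counts at E14.5. The cortical markers Emx1, Tbr1, Neurod2 and Neurod6 were detected at both ages. Tbr1, a transcription factor of deep-layer cortical neurons, had 140 ± 2.94 RPM (reads scaled to the library total) in adults and 361 ± 15.0 RPM at E14.5, and Emx1, a transcription factor of the dorsal forebrain, 14.3 ± 2.47 RPM in adults and 102 ± 6.31 RPM at E14.5. Progenitor markers summed to 69.4 to 74.5 RPM in adults and 2168 to 2309 RPM at E14.5. Thalamic markers were at 17.8 to 21.7 RPM in adults and 104 to 112 RPM at E14.5. Adult replicate 3 stood apart in the summed choroid plexus and meningeal markers (401 RPM, against 54.3 and 30.1 RPM in adult replicates 1 and 2). It also stood apart in striatal markers (250.3 RPM, against 158 and 169 RPM). E14.5 replicate 4 was low in this sum, the choroid plexus and meningeal markers, at 355 RPM against 830 to 948 RPM in the other embryonic libraries. The sum was mostly the choroid plexus gene Ttr, with 14.6 to 373 RPM in adults and 198 to 752 RPM at E14.5. The meningeal genes varied less, with 3.96 to 4.94 RPM for Col1a1 and 6.20 to 10.7 RPM for Dcn in adults. At E14.5 they had 58.5 to 98.7 RPM and 37.3 to 66.2 RPM.

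The genes ranged widely in size, which bears on how their reads are read as levels. In GENCODE M21 on GRCm38, Grm5 (ENSMUSG00000049583) lies on chromosome 7 from 87584168 to 88134907 and spans 550.7 kb. Grm2 (ENSMUSG00000023192) lies on chromosome 9 from 106643095 to 106656082 and is the most compact of the 6, at 12988 bases. Grm3 (ENSMUSG00000003974) lies on chromosome 5 from 9485541 to 9725170 and spans 239.6 kb. Grm4 (ENSMUSG00000063239) lies on chromosome 17 from 27422387 to 27521403 and spans 99.0 kb. Grm7 (ENSMUSG00000056755) and Grm8 (ENSMUSG00000024211) are both on chromosome 6, from 110645581 to 111567230 and from 27275119 to 28135178, with spans of 921.6 and 860.1 kb. All 6 are protein-coding. The lengths behind the authors' RPKM values (RPM per kilobase of gene) were 10.25 kb for Grm5, 4.89 kb for Grm2, 3.05 kb for Grm3, 5.32 kb for Grm4, 5.89 kb for Grm7 and 9.90 kb for Grm8. Exons of genes on the opposite strand covered 9.60% of Grm2 exon bases and 2.21% of Grm7 exon bases, and 0% for the other 4 genes, and the E14.5 kit does not mark strand, so reads of the 2 strands cannot be told apart over those bases.

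The upstream sequences of Grm2 and Grm3 are shown because the ratio between these group II genes differed most between the ages among the 5 pairs compared. Each is the 250 bases before the RefSeq start on GRCm38.p6, on the minus strand, at chr9:106656110-106656359 for Grm2 and chr5:9725353-9725602 for Grm3. Capitals mark matches to the GC box GGGCGG and to TTCAGCACC and GGACAGC, the left and right parts of the RE1 element, which is the site of the neuronal gene repressor REST.
Grm2: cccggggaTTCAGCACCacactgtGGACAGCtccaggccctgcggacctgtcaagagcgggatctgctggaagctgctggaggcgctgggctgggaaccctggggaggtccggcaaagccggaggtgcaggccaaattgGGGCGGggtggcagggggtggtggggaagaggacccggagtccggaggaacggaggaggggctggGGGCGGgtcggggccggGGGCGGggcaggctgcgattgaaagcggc
Grm3: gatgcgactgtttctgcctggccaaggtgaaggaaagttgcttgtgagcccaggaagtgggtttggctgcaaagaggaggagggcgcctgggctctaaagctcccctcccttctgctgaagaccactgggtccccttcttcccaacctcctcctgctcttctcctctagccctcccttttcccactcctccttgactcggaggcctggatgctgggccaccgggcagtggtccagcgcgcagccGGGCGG

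The Grm2 window held both RE1 parts on the gene's own strand, beginning at positions 9 and 25 of the window, and 3 GC boxes. The Grm3 window held 1 GC box, beginning at position 245, and neither RE1 part. On either strand, a GC box was present in 32.7% of 32851 such mouse windows, the left RE1 part in 0.301% and the right RE1 part in 5.28%. Both RE1 parts, at any spacing and in any order, were present in 5 windows (0.0152%). A full RE1 element with a set spacing between its parts was not searched for. The RE1 parts were searched for after the Grm2 sequence had been read. The Grm2 window had 16 CG dinucleotides and 71.2% G and C, and the Grm3 window 8 and 62.4%, where the median window had 6 and 52.4%. RefSeq windows were also found for Grm7 and Grm8, and each of these genes had a window with 1 GC box. The matches describe these letters and were not tested for binding or for any part in the age difference.

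All 6 receptors were higher in the adult libraries than at E14.5. In the edgeR quasi-likelihood test with Benjamini-Hochberg adjustment over 20800 genes, 6 of 6 members rose, where 41.7% of all genes tested were called higher in adults and 86.3% in either direction. All 6 also passed the test against a 2-fold change, where 24.5% of genes tested were called higher, 22.6% lower and 47.1% in either direction. Every adult library lay above every E14.5 library for each of the 6, as it did for 32.2% of genes tested. The median log2 fold change (adult over E14.5) was 4.53 over the members and -0.08 over all genes tested. Of all calls, 48.4% were higher in adults with TMM scaling and 37.1% with total counts only, which moved the median of all genes to -0.49; the 6 members rose under both. Markers of several cell types moved with age as well. Oligodendrocyte markers summed to 4792 to 4984 RPM in adults and 33.3 to 37.2 RPM at E14.5 (5 of 5 higher), and interneuron markers to 699 to 758 RPM in adults and 71.9 to 123 RPM at E14.5 (5 of 6 higher). Microglial markers summed to 178 to 191 RPM in adults and 32.4 to 47.0 RPM at E14.5 (5 of 5 higher), and oligodendrocyte precursor markers to 131 to 143 RPM in adults and 30.6 to 43.4 RPM at E14.5 (4 of 4 higher). Excitatory neuron markers summed to 3975 to 4303 RPM in adults and 1255 to 1379 RPM at E14.5 (4 of 6 higher, 2 lower). Endothelial marker sums overlapped, at 116.9 to 135.5 RPM in adults and 107.9 to 149.8 RPM at E14.5 (1 of 4 higher, 2 lower). Mitochondrial genes took 8.13 ± 0.386% of adult counts (SD, n = 3) and 2.26 ± 0.0624% of E14.5 counts (SD, n = 4). The part of these in the receptor levels was not tested. These are whole pieces of tissue, in which more cells of a type and more RNA per cell cannot be told apart.

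**Figure D1:**
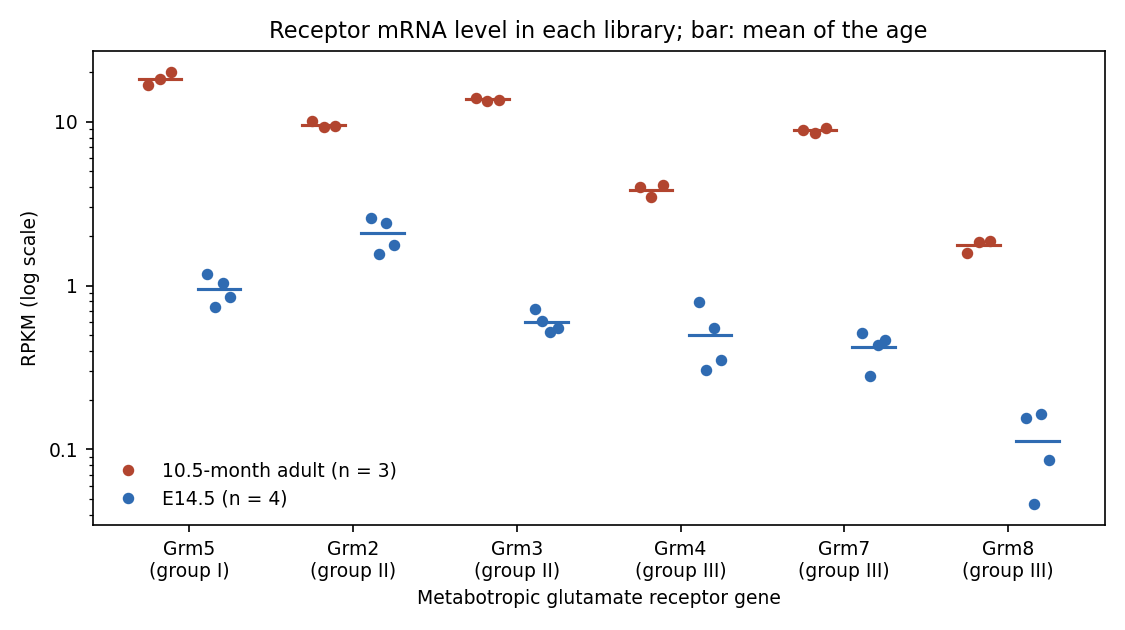
RPKM of each receptor gene (log axis) in the 3 adult libraries and the 4 E14.5 libraries; points are libraries and bars are means of the age. Every adult point lies above every E14.5 point of the same gene, with the narrowest gap for Grm2 (lowest adult library 3.598 times the highest E14.5 library).

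Grm5, the group I receptor, had the highest adult level per length of the family. It had 16.8, 18.1 and 20.03 RPKM in adult replicates 1 to 3, against 1.18, 0.735, 1.03 and 0.854 RPKM in E14.5 replicates 1 to 4. The adult libraries were thus all at least 14.2 times the highest E14.5 library. Grm5 averaged 18.3 ± 1.63 RPKM in adults (SD, n = 3) and 0.950 ± 0.195 RPKM at E14.5 (SD, n = 4), and the log2 fold change was 4.68 (SE 0.138; edgeR, adjusted p = 2.6e-09). Adult replicate 3, the library with the most striatal marker RNA, also had the most Grm5, as it did for Grm4, Grm7 and Grm8. Without it the Grm5 log2 fold change was 4.62, and the part of striatal tissue in this value was not tested.

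Grm2, a presynaptic group II autoreceptor, was the most abundant member at E14.5 and had the smallest log2 fold change, except with log2(RPKM + 0.5), where Grm8 had 1.89 and Grm2 1.99. It had 10.2, 9.28 and 9.36 RPKM in adult replicates 1 to 3, against 2.58, 1.56, 2.42 and 1.76 RPKM in E14.5 replicates 1 to 4. The means were 9.60 ± 0.489 RPKM in adults (SD, n = 3) and 2.08 ± 0.496 RPKM at E14.5 (SD, n = 4), so the spread was similar in RPKM at both ages while the level was not. The log2 fold change was 2.62 (SE 0.155, edgeR adjusted p = 3.7e-07), which ranked 2567 among the genes tested.

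Grm3, the other group II receptor, which binds the peptide NAAG and is found in glia as well as neurons, had a log2 fold change close to those of Grm7 and Grm5. It was the largest of the 6 in the fit to all libraries but not with female libraries only (5.00, against 5.03 for Grm7), with sex in the model (5.01, against 5.04 for Grm7) or with log2(RPKM + 0.5) (3.69, against 3.70 for Grm5). It had 13.98, 13.5 and 13.6 RPKM in adult replicates 1 to 3, against 0.721, 0.605, 0.522 and 0.554 RPKM in E14.5 replicates 1 to 4. Grm3 was also the steadiest member, with a coefficient of variation (SD over mean, in RPM) of 1.97% in adults and 14.5% at E14.5. These compare with 2.90% and 12.1% from counting error alone, so the adult spread was below, and the embryonic spread just above, that of sampling. Its means were 13.7 ± 0.269 RPKM in adults (SD, n = 3) and 0.601 ± 0.0870 RPKM at E14.5 (SD, n = 4), and the log2 fold change was 4.92 (SE 0.089; edgeR, adjusted p = 1.9e-13). Astrocyte markers moved the same way, with 6 of 6 called higher and sums of 1259 to 1366 RPM in adults and 329 to 388 RPM at E14.5. Their part in the Grm3 result was not tested.

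Among the group III receptors, Grm7, an active-zone receptor of low glutamate affinity, was the most abundant in adults. Grm7 had 8.95, 8.52 and 9.18 RPKM in adult replicates 1 to 3, against 0.517, 0.282, 0.431 and 0.468 RPKM in E14.5 replicates 1 to 4. It averaged 8.88 ± 0.335 RPKM in adults (SD, n = 3) and 0.424 ± 0.101 RPKM at E14.5 (SD, n = 4), and the log2 fold change was 4.78 (SE 0.125; edgeR, adjusted p = 1.5e-11). Both male E14.5 libraries were above both female ones for Grm7, and for no other member. With 2 libraries of each sex no test was made, and the log2 fold change against the female embryos alone was 5.03.

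Grm4, a presynaptic group III receptor, had 3.97, 3.49 and 4.09 RPKM in adult replicates 1 to 3, against 0.798, 0.306, 0.549 and 0.353 RPKM in E14.5 replicates 1 to 4. The embryonic libraries were widely spread, with a coefficient of variation of 44.6% against 10.0% from counting error, whereas the adult libraries varied by 8.31%. The log2 fold change was 3.35 (SE 0.275, edgeR adjusted p = 8.1e-06), and it was 3.67 without E14.5 replicate 1, the library with the highest embryonic Grm4.

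Grm8, the least abundant member at both ages, had 1.59, 1.85 and 1.87 RPKM in adult replicates 1 to 3, against 0.155, 0.0466, 0.164 and 0.0865 RPKM in E14.5 replicates 1 to 4. At E14.5 these levels rested on 60, 15, 55 and 37 counts, and the exact 95% Poisson interval of the lowest was 8.40 to 24.7 counts. Replicate 2 was thus the lowest embryonic library. Replicate 3 had the highest RPKM, but the intervals of replicates 1 and 3 overlapped (45.8 to 77.2 and 41.4 to 71.6 counts), so their order is not settled. The lowest adult library was 9.68 times the highest embryonic one. The log2 fold change was 4.37 (SE 0.284, edgeR adjusted p = 8.3e-07).

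The order of the receptors by RPKM changed between the ages. In adults it ran Grm5, Grm3, Grm2, Grm7, Grm4, Grm8, and no neighbouring pair overlapped over the 3 libraries. The closest neighbours were Grm2 and Grm7, with Grm2 1.02 to 1.14 times Grm7 within a library. At E14.5 the order ran Grm2, Grm5, Grm3, Grm4, Grm7, Grm8. There the ranges of Grm3 and Grm4 overlapped, as did those of Grm4 and Grm7, while Grm2 was 2.07 to 2.35 times Grm5 in all 4 libraries. These orders depend on the gene lengths. By mean RPM, the adult order was Grm5, Grm7, Grm2, Grm3, Grm4, Grm8, and Grm2 and Grm5 were close at E14.5 (10.2 and 9.73 RPM). Among the genes tested, the mean adult RPKM of Grm5 stood at percentile 86.5 and that of Grm8 at percentile 39.3. At E14.5 the members stood between percentiles 7.39 (Grm8) and 38.1 (Grm2).

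The make-up of the receptor pool shifted away from Grm2. The 6 genes summed to 56.1 ± 1.82 RPKM in adults (SD, n = 3) and 4.67 ± 1.08 RPKM at E14.5 (SD, n = 4), a ratio of 12.0. Grm2 supplied 17.1 ± 1.13% of that sum in adults and 44.5 ± 1.92% at E14.5. Grm5 supplied 32.6 ± 2.13% in adults and 20.4 ± 0.531% at E14.5, Grm3 24.4 ± 0.898% and 13.3 ± 2.93%, and Grm7 15.8 ± 0.292% and 9.14 ± 1.58%. Grm4 made up 6.86 ± 0.425% in adults and 10.4 ± 2.25% at E14.5. The ages overlapped for none of these 5 shares, but did for Grm8 (3.15 ± 0.266% in adults and 2.31 ± 0.796% at E14.5). The shares are parts of the same sum, so a lower Grm2 share raises the others, and they are not separate results. How often such shares separate the ages in other gene sets was not counted. By group, group I held 32.6%, group II 41.6% and group III 25.8% of the adult sum, against 20.4%, 57.8% and 21.8% of the E14.5 sum. These shares depend on 1 length per gene, and RPM, without length, give Grm5 51.1% in adults and 34.9% at E14.5.

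**Figure D2:**
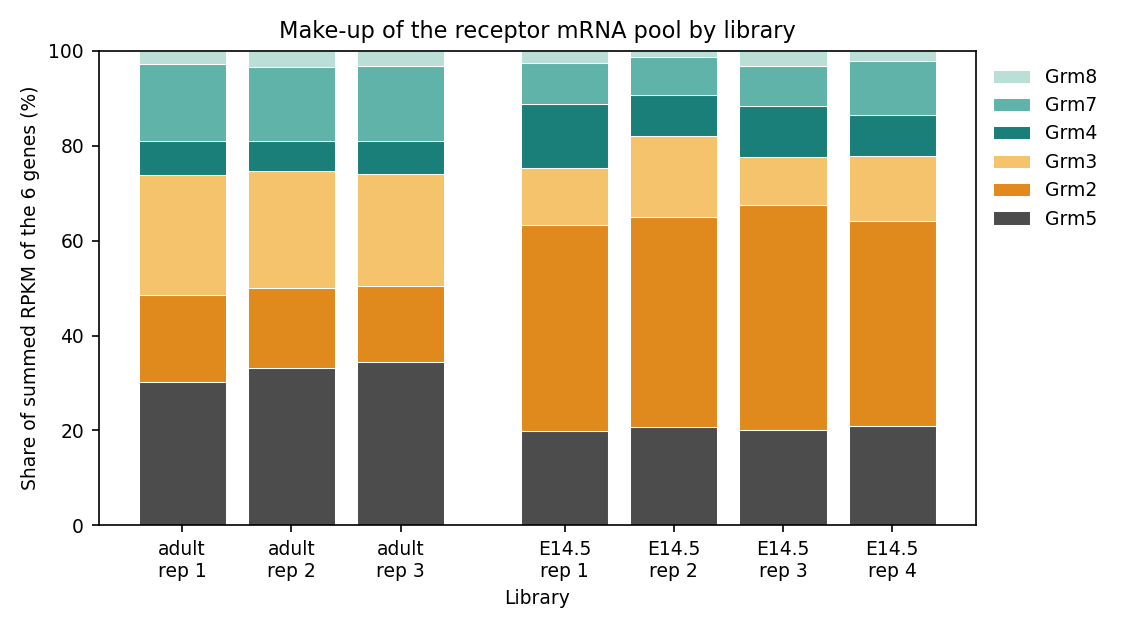
Share of each receptor gene in the summed RPKM of the 6 genes (percent), 1 bar per library, with the 3 adult libraries on the left and the 4 E14.5 libraries on the right. Grm2 fills 16.1 to 18.3% of the adult bars and 43.3 to 47.3% of the E14.5 bars.

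Ratios between members within a library do not depend on how libraries are scaled, and 5 pairs were compared. The exact two-sided permutation test over 3 and 4 libraries cannot go below p = 0.0571, so none could pass 0.05. The Grm3 to Grm2 ratio was 1.38, 1.45 and 1.46 in adult replicates 1 to 3, against 0.279, 0.388, 0.216 and 0.314 in E14.5 replicates 1 to 4. Per length, Grm3 was thus above Grm2 in every adult library and below it in every E14.5 library. In RPM, without length, Grm3 was below Grm2 in the adults too, with 42.6, 41.0 and 41.6 RPM for Grm3 and 49.7, 45.4 and 45.8 RPM for Grm2, while the difference between the ages does not depend on length. The difference in mean log2 ratio (adult minus E14.5) was 2.29 (exact permutation p = 0.0571, 0.0952 after Benjamini-Hochberg adjustment over 5 pairs).

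Within group III, Grm4 was lower relative to both other members in adults. The Grm4 to Grm7 ratio was 0.444, 0.410 and 0.446 in adults, against 1.54, 1.09, 1.27 and 0.753 at E14.5. Its mean log2 ratio differed by -1.38 (exact permutation p = 0.0571, adjusted 0.0952). The Grm4 to Grm8 ratio was 1.88 to 2.51 in adults and 3.35 to 6.58 at E14.5, a log2 difference of -1.09 with the same exact permutation p of 0.0571 (adjusted 0.0952). The ages did not overlap for these pairs, and how often this holds for pairs of other genes was not counted. The ages did overlap for Grm8 to Grm7 (log2 difference -0.29, exact permutation p = 0.514, adjusted 0.514) and for Grm5 to Grm3 (log2 difference -0.23, exact permutation p = 0.229, adjusted 0.286).

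**Figure D3:**
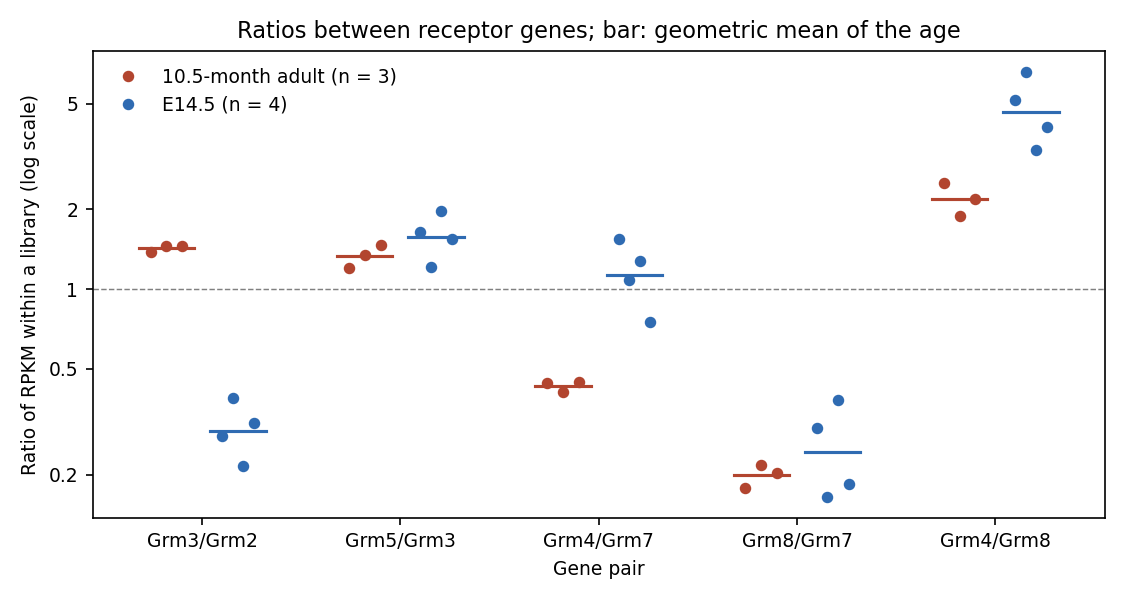
Ratio of RPKM between receptor genes within each library (log axis) for 5 pairs; points are libraries, bars geometric means of the age, and the dashed line marks equal RPKM. The Grm3 to Grm2 ratio lies above 1 in the 3 adult libraries and below 1 in the 4 E14.5 libraries.

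The E14.5 libraries varied together across the family. Replicate 1 had the highest RPKM for 5 of the 6 members and replicate 2 the lowest for 5 of the 6. Grm8 was the exception at the top, where replicate 3 was highest by a margin within counting error (0.164 RPKM, against 0.155 in replicate 1). Grm3 was the exception at the bottom, where replicate 3 was lowest. The share of all genes that were highest in replicate 1 or lowest in replicate 2 was not counted. The order is therefore not read as particular to this family. The summed RPKM of the members was 127%, 75.6%, 110% and 87.4% of the E14.5 mean in replicates 1 to 4. Interneuron markers (Gad1, Gad2, Slc32a1, Lhx6, Sst, Npy) summed to 129%, 75.8%, 107% and 88.2% of their own E14.5 mean in the same libraries. The E14.5 range was wide for Gad1 (13.9 to 35.3 RPM), Gad2 (14.1 to 35.4 RPM) and Slc32a1 (4.76 to 10.2 RPM). It was narrower for Lhx6 (23.7 to 29.7 RPM), Sst (12.6 to 17.0 RPM) and Npy (2.40 to 3.98 RPM). Striatal markers stood at 115%, 91.9%, 110% and 83.4% of their E14.5 mean. Excitatory neuron markers stayed between 96.9 and 107%, and progenitor markers between 97.5 and 104%. Replicate 1, from an earlier plug date, also had the most microglial (124%), oligodendrocyte precursor (123%), erythroid (121%) and endothelial (120%) marker RNA. The part of these cell types in the receptor levels was not tested.

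**Figure D4:**
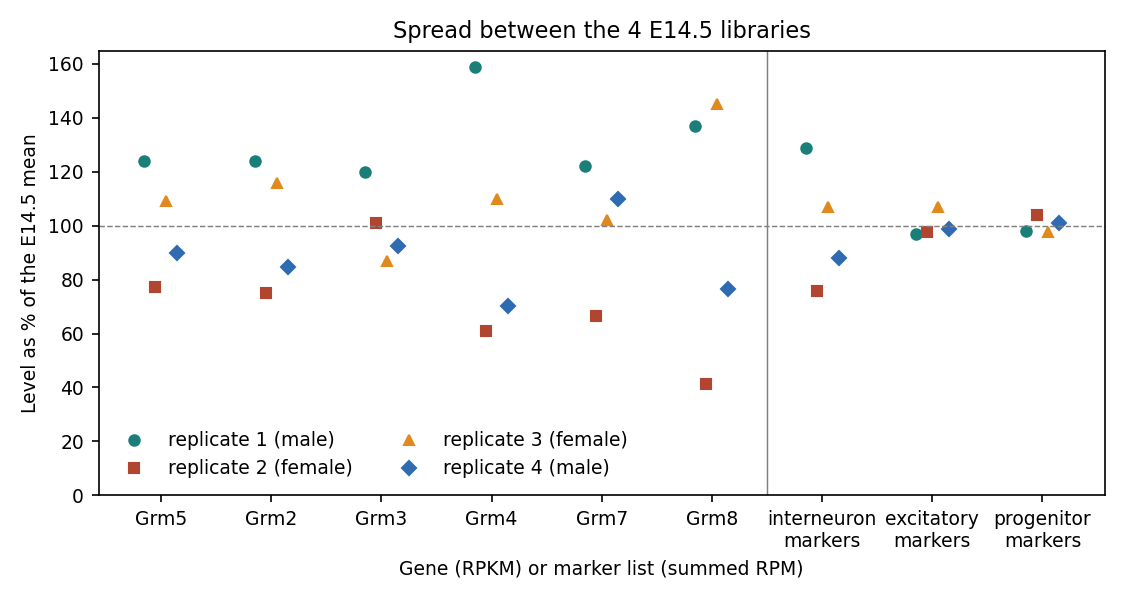
Level of each receptor gene (RPKM) and of 3 marker lists (summed RPM) in the 4 E14.5 libraries, as percent of the E14.5 mean (dashed line). Replicate 2 lies at 41.2% for Grm8 and 61.1% for Grm4, and the interneuron markers spread from 75.8 to 129% while the excitatory and progenitor markers stay within 96.9 to 107%.

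The adult libraries were closer to each other, with coefficients of variation of 1.97% (Grm3) to 8.93% (Grm8) against 14.5% (Grm3) to 49.7% (Grm8) at E14.5. The adult spread exceeded counting error most for Grm5, with a chi-square per degree of freedom of 43.2. It was 4.09 for Grm8, 3.91 for Grm4, 3.54 for Grm2 and 2.06 for Grm7, and only Grm3 was below 1, at 0.465. The Atr +/+ library (replicate 2) was the lowest adult library for Grm2, Grm3, Grm4 and Grm7 and lay between the Atr fl/+ libraries for Grm5 and Grm8. With a single such library the genotypes were not tested.

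The genes with the age pattern most like each member were found among the 17141 genes averaging 1 RPM or more, by the root mean square difference in log2(RPKM + 0.1) across the 7 libraries after centring. Nearest to Grm5 were Ptprn2, a dense-core vesicle protein (difference 0.078), and Dbndd2 (0.087), and Grm7 was its 15th nearest. Nearest to Grm7 were Rap1gap2, a GTPase-activating protein for Rap (0.090), and Selplg, a P-selectin ligand (0.103), with Grm5 the 9th. Grm3 lay closest to Htr1a, a serotonin receptor (0.053), and Atp13a5 (0.061). Grm2 lay closest to C230057M02Rik (0.036) and Kifc3, a kinesin (0.043), and the nearest other member, Grm4, ranked 953. Grm4 lay closest to Ntng1, the netrin-G1 adhesion protein (0.137), and Fam155a (0.138). Grm8 lay closest to Sema3e, a guidance semaphorin (0.065), and Sphkap (0.072), although its low embryonic RPKM makes this scale understate its change. The measure mostly reflects the size of the age difference.

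The signalling genes around the receptors were mostly higher in adults, with exceptions in each list. The lists are given by their counts in the edgeR test and are read against 41.7% of genes called higher and 44.6% called lower. In all, 62 list genes were higher and 14 lower, against 58 and 20 with total counts only.

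On the Gq side used by Grm5, 8 of 9 G protein, phospholipase C and kinase genes rose and 1 fell (median log2 fold change 2.66). Prkcb, an isoform of protein kinase C, had 477 ± 15.6 RPM in adults and 15.1 ± 1.25 RPM at E14.5 (log2 fold change 5.40, edgeR adjusted p = 2.8e-14). Plcb3, a phospholipase C, was the member that fell, with 16.5 ± 0.486 RPM in adults and 33.3 ± 1.71 RPM at E14.5 (log2 fold change -0.59, edgeR adjusted p = 1.4e-06).

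On the Gi/o side used by groups II and III, 10 of 13 genes rose and 3 fell (median 2.77). The largest rises were in potassium channel subunits that G beta-gamma opens. Kcnj9 had 150 ± 8.33 RPM in adults and 2.42 ± 0.334 RPM at E14.5, and Kcnj6 15.5 ± 0.702 RPM in adults and 0.277 ± 0.119 RPM at E14.5. G protein subunits moved both ways, with Gnai1, Gnaz and Gnao1 higher (log2 fold changes 2.77, 2.40 and 0.90) and Gnai3, Gnai2 and Gnb1 lower. Gnai3 had 44.7 ± 3.61 RPM in adults and 245 ± 7.30 RPM at E14.5, a log2 fold change of -2.04 (edgeR adjusted p = 9e-12), against -1.18 for Gnai2 and -0.20 for Gnb1.

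Of 14 scaffold and partner genes, 10 rose, 3 fell and 1 did not pass (median 2.47). Frmpd4, a scaffold that binds group I receptors, had 91.4 ± 7.71 RPM in adults and 1.69 ± 0.539 RPM at E14.5, and Ncdn, the receptor partner norbin, 1030 ± 22.1 RPM in adults and 94.2 ± 13.4 RPM at E14.5. Homer3, which links group I receptors to internal calcium stores, fell to 10.3 ± 0.906 RPM in adults, against 48.1 ± 1.44 RPM at E14.5 (log2 fold change -1.81, edgeR adjusted p = 1.1e-10). Grip1 and Siah1a also fell (log2 fold changes -0.91 and -1.03), and Pick1, a partner of Grm7, did not pass (log2 fold change 0.05).

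Among 9 desensitisation genes, 6 rose, 1 fell and 2 did not pass (median 1.38). Rgs4 and Rgs7, which speed G protein shut-off, had 391 ± 15.4 and 99.5 ± 6.11 RPM in adults, against 14.1 ± 4.78 and 4.14 ± 1.13 RPM at E14.5. Grk6, a receptor kinase, fell to 65.8 ± 1.48 RPM in adults, against 120 ± 4.18 RPM at E14.5 (fitted log2 fold change -0.45). Grk5 and Arrb2 had log2 fold changes of -0.13 and 0.10. The number that fell was 3 with total counts as the only scaling.

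Genes that supply and clear the ligands moved in both directions, with 7 of 12 higher, 4 lower and 1 not passing (median 2.23). Slc1a2, the main astrocyte glutamate transporter, had 3330 ± 53.9 RPM in adults and 50.3 ± 12.9 RPM at E14.5, and Folh1, the enzyme that cleaves NAAG, 6.62 ± 0.383 RPM in adults and 0.268 ± 0.0921 RPM at E14.5. Both NAAG synthetases fell, Rimklb by 1.99 and Rimkla by 0.98 on the log2 scale, while the NAAG receptor gene Grm3 rose. Slc7a11, the cystine-glutamate exchanger, fell to 39.3 ± 1.08 RPM in adults, against 248 ± 21.7 RPM at E14.5, and the vesicular transporter Slc17a6 fell by 1.18 on the log2 scale, whereas the vesicular transporter Slc17a7 rose (log2 fold change 3.74). Naalad2 had a log2 fold change of 0.40 that did not pass.

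Of 9 genes tied to receptor-driven synaptic depression, 6 rose, 1 fell and 2 did not pass (median 0.48). Arc, an activity-induced regulator of AMPA receptor removal, had 345 ± 105 RPM in adults and 7.47 ± 0.376 RPM at E14.5, and Map2k1, a MAP kinase kinase, 195 ± 8.53 RPM in adults and 35.5 ± 2.09 RPM at E14.5. Map1b, a microtubule protein, fell to 710 ± 31.7 RPM in adults, against 1095 ± 28.6 RPM at E14.5, a fitted log2 fold change of -0.21 after TMM scaling. Fmr1 and Mapk3 had log2 fold changes of 0.04 and 0.07. With total counts only, 4 of the 9 rose and 3 fell.

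The ion-channel glutamate receptors are given for comparison, with 15 of 16 subunit genes higher and 1 lower (median 3.06, against 4.53 for the 6 metabotropic genes; the difference between the medians was not tested). Grin2a and Grin1, NMDA receptor subunits, had 243 ± 11.1 and 484 ± 13.1 RPM in adults, against 0.873 ± 0.0348 and 6.37 ± 1.94 RPM at E14.5. Their log2 fold changes of 8.53 and 6.66 were above that of every metabotropic member. Grin3b was the subunit that fell, at 0.178 ± 0.130 RPM in adults and 0.726 ± 0.254 RPM at E14.5 (log2 fold change -1.62, edgeR adjusted p = 0.0079). It rested on 15 adult counts in all and did not pass without adult replicate 1 (edgeR adjusted p = 0.051). Grik2 was called higher in the main fit, with TMM scaling (log2 fold change 0.18, edgeR adjusted p = 0.032). With RLE scaling and with DESeq2, 15 subunit genes were likewise higher and 1 lower. The printed level of Grik2, without such scaling, was 70.9 ± 3.73 RPM in adults and 83.5 ± 7.01 RPM at E14.5. With total counts only, 14 subunit genes were higher and 2 lower.

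**Figure D5:**
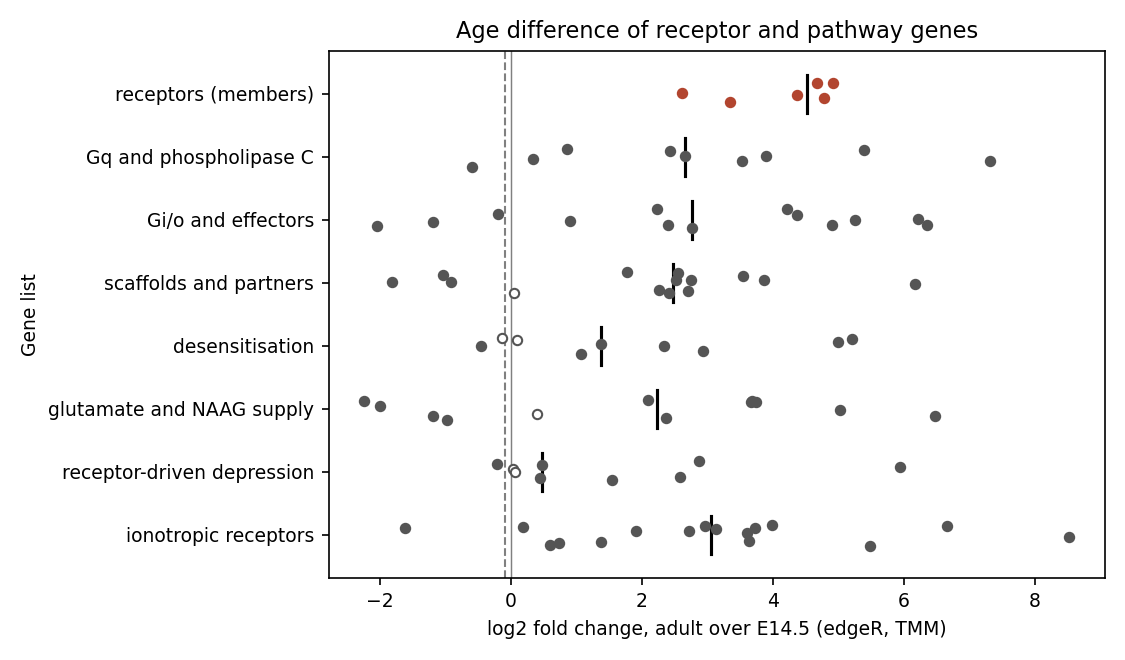
Log2 fold change (adult over E14.5, edgeR with TMM scaling) of the 6 receptor genes and of the genes in 7 pathway lists. Filled points passed an adjusted p of 0.05, open points did not, short bars are list medians, and the dashed line is the median of all genes tested (-0.08). The receptor genes lie between 2.62 and 4.92, and each pathway list has at least 1 point below 0.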

How the data were processed

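Per the submitters' processing notes, the authors used bcl2fastq 1.8.4, TopHat2 2.1.0, featureCounts 1.5.0 and GRCm38; how strand and multiply matching reads were treated, and which annotation was used, is not given in the sources used here. Gene-level counts were deposited by the authors as whole numbers. The deposited tables also gave RPM (CPM), scaled to the library total, and RPKM, which divides RPM by 1 length per gene. The age test was run on counts in edgeR 4.0.16 under R 4.3.3 (TMM factors, filterByExpr with minimum count 10 and total 15, quasi-likelihood F test with robust fitting, Benjamini-Hochberg threshold 0.05), and beyond 2-fold with glmTreat. Printed levels are the deposited RPM and RPKM, not scaled by TMM, so the ratio of printed means understates the fitted fold change of a gene that rose and overstates that of a gene that fell. Standard errors are the log2 fold change over the square root of F. Pair ratios used exact permutation tests in SciPy 1.17.1. Alternatives were other scalings, filters, DESeq2 1.42.0, limma 3.58.1 (voom, and trend on log2 of RPKM plus 0.5 or 0.1), leaving out single libraries, using the female libraries alone, adding sex to the model, blocking on replicate number, and offsets for GC content and length (splines of 5 degrees of freedom; GC known for 53620 genes).

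On simulated counts for the age comparison (20244 genes), the test found 47 of 67 at 1.5-fold, 57 of 67 at 2-fold and 65 of 66 at 4-fold, and made 19 false calls. The simulation changed few genes, in both directions, around a mean profile shared by the ages. In the data 86.3% of genes were called, so these rates check that the code runs as meant and do not give its error rates here. Positions and overlaps are from GENCODE M21 and upstream sequences from RefSeq (GRCm38.p6). The members and lists were chosen with earlier results of these data known. List genes named in the report are, by rule, the 2 strongest calls in the direction most of the list took and the strongest in the other. Some genes of these lists are not reported here. The others were named after their values were seen. Other receptors of the family were not analysed here. Intervals cover counting error only.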

Additional observations from a re-analysis of the deposited data

How the results depend on the processing

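Each of the 6 receptors kept its direction and its call in all 20 alternative settings. The log2 fold changes ranged from 1.99 to 2.73 for Grm2, 3.69 to 5.01 for Grm3, 2.14 to 3.67 for Grm4, 3.70 to 4.79 for Grm5, 3.35 to 5.04 for Grm7 and 1.89 to 4.59 for Grm8. The lowest values came from log2(RPKM + 0.5). The highest adjusted p over these settings was 0.00067, for Grm8 with the replicate block. Total-count scaling moved the median of all genes from -0.08 to -0.49 and the share of calls that were higher from 48.4% to 37.1%, and the 2 limma-trend settings gave 37.0%. Genes called higher beyond 2-fold numbered 5100, and 2729 with limma-trend on log2(RPKM + 0.5).

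Replicate numbers did not pair the libraries, with correlations of deviations between same-numbered adult and E14.5 libraries of -0.001, -0.015 and 0.028. The fit with the replicate block leaves out E14.5 replicate 4, which has no adult partner, and called 17467 genes, against 17599 for the same libraries without the block and 17948 for all libraries. The counts of 6 members higher, 62 list genes higher and 14 lower were equal with the block and with all libraries. Pair ratios kept their direction throughout. Differences between numbered pairs were 2.32 for Grm3 to Grm2 and -1.57 for Grm4 to Grm7, where 3 pairs cannot reach 0.05. With 0.1 added to RPKM, the Grm8 to Grm7 difference was -0.95 and the Grm4 to Grm8 difference -0.39.

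Shares from RPM in place of RPKM were, in adults, 51.1% for Grm5, 12.9% for Grm2, 11.4% for Grm3, 5.59% for Grm4, 14.3% for Grm7 and 4.77% for Grm8. At E14.5 they were 34.9% for Grm5, 36.3% for Grm2, 6.76% for Grm3 and 3.81% for Grm8.

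List genes that did not pass turned sign in some settings and passed as lower in several of them, and the cause was not tested. The smallest adjusted p of such a turn was 2.1e-06 for Fmr1 (offsets), and 6.7e-05 for Mapk3, 8.9e-05 for Arrb2 and 0.0012 for Pick1 (total counts). Grk5 passed as lower in 5 settings, Arrb2 as higher in 4 and Naalad2 as higher in 3. In the order total counts, limma-trend with 0.5, limma-trend with 0.1, offsets for GC and length, and upper-quartile scaling, log2 fold changes were -0.36, -0.30, -0.35, -0.22 and -0.08 for Pick1. They were -0.31, -0.30, -0.31, -0.11 and -0.025 for Arrb2, -0.37, -0.36, -0.37, -0.45 and -0.09 for Fmr1, and -0.34, -0.34, -0.34, -0.15 and -0.06 for Mapk3. Without the low-count filter they were -0.028 for Pick1, -0.04 for Fmr1 and -0.0081 for Mapk3. Pick1 was at -0.021 without adult replicate 1. Naalad2 was at -0.01 with total counts and at -0.0023 and -0.002 with limma-trend. Among the ion-channel receptor genes, all of which had passed, the number lower was 1 in the main fit. That number was 2 with total counts, with limma-trend and with the offsets, so a gene called higher in the main fit passed there as lower.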
